A study of Homo sapiens with 89 samples.

Results

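The 35 genes described here encode integrin subunits and the proteins that join integrins to the actin cytoskeleton at focal adhesions. They were taken by gene symbol as a fixed set of 12 alpha subunits, 5 beta subunits, 7 linkers to actin, 5 members of the ILK complex and 6 adaptor and LIM proteins, and each had 1 of the 57905 gene rows in both count tables. The RNA-seq of polyadenylated RNA covered 5 groups of 3 libraries in human neuroblastoma lines. In IMR-32, a line with amplified MYCN, the shEXOSC10 group carried a doxycycline-inducible shRNA against EXOSC10, a catalytic subunit of the nuclear RNA exosome, and was induced with 1 µg/ml doxycycline; its control group had no doxycycline. The count columns of both groups carry the same name, with DOX for shEXOSC10 and EtOH for control libraries. In SHEP, a line without MYCN amplification, the MYCNWT group was induced with doxycycline to express wild-type MYCN and the MYCN3A group to express MYCN with a triple mutation that impairs its binding of RNA; the noMYCN group had no doxycycline. The labels do not say which of the engineered SHEP cells the noMYCN libraries came from, or whether replicates were separate cultures, so p-values measure the spread between these libraries only. Doxycycline and the induced shRNA or protein cannot be told apart, except between MYCNWT and MYCN3A, which both had it. These 2 groups carried different constructs, so the form of MYCN and any other difference between the engineered cells cannot be told apart there.

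Integrins are heterodimers of 1 alpha and 1 beta chain that bind collagens, laminins, fibronectin and other matrix proteins outside the cell. Talin and kindlin bind the beta tail and switch the receptor to its active state, and talin, vinculin, alpha-actinin and tensin then couple it to actin, while the ILK, PINCH and parvin complex and adaptors such as paxillin assemble on the same site. Neuroblastoma lines are commonly described as adrenergic or mesenchymal, and the adherent mesenchymal kind is known for abundant adhesion and matrix genes.

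Gene totals were 16394148 to 26193478 counts in the IMR-32 libraries and 11638859 to 15353505 counts in the SHEP libraries. EXOSC10 itself had 49.0, 46.7 and 46.1 CPM (counts scaled to library size) in shEXOSC10 libraries, against a mean of 68.6 ± 5.48 CPM in control libraries (SD, n = 3), a log2 change (log2 of the fold change) of −0.54 (SE 0.08, adjusted p = 2.27e-08 by the quasi-likelihood F test of edgeR, Benjamini-Hochberg adjusted over all genes). MYCN averaged 599 ± 5.44 CPM in shEXOSC10 libraries and 1097 ± 15.4 CPM in control libraries (SD, n = 3 each). In SHEP the MYCN row held 0 to 2 counts in libraries labelled MYCNWT, 0 to 10 in libraries labelled MYCN3A and 0 to 4 in libraries labelled noMYCN, so it did not show the induced protein's transcript in any group; whether this row can count the transgene was not tested, and the SHEP groups are named by their labels throughout. Summed adrenergic markers had 1810 to 1870 CPM in shEXOSC10 libraries against 3080 to 3320 CPM in control libraries, and 70 to 87.7 CPM in SHEP. In shEXOSC10 libraries 7 of the 8 adrenergic genes were called lower and 1 higher, against 13.7% lower and 13.5% higher among all genes tested. Of the 6 mesenchymal markers tested there, 2 were called lower and 1 higher. Summed mesenchymal markers had 526 to 553 CPM in shEXOSC10 libraries and 498 to 527 CPM in control libraries, and 6590 to 6830 CPM in MYCNWT, 5110 to 5430 CPM in MYCN3A and 5410 to 5690 CPM in noMYCN libraries; the part of either marker change in the results below was not tested, and in bulk RNA fewer cells of a type and less RNA per cell cannot be told apart. The 10 leukocyte markers summed to 17.5 to 20.3 CPM in shEXOSC10 and 15.8 to 17.6 CPM in control libraries, and to 10.5 to 13.7 CPM in MYCNWT, 17.6 to 18.9 CPM in MYCN3A and 16.4 to 17.5 CPM in noMYCN libraries. ITGAE had 123 to 402 counts in a library and PTPRC 0 to 4. Platelet and endothelial markers summed to 63.3 to 66.2 CPM in shEXOSC10 and 53.8 to 68.7 CPM in control libraries, with 1029 to 1685 counts of the platelet integrin chain ITGA2B, and to at most 0.93 CPM in SHEP libraries. Glial markers summed to 20.3 to 22.7 CPM in shEXOSC10 and 15 to 22.2 CPM in control libraries and to at most 2.6 CPM in SHEP libraries, and epithelial markers to at most 1.47 CPM anywhere; the part of these in the results was not tested.

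**Figure D1:**
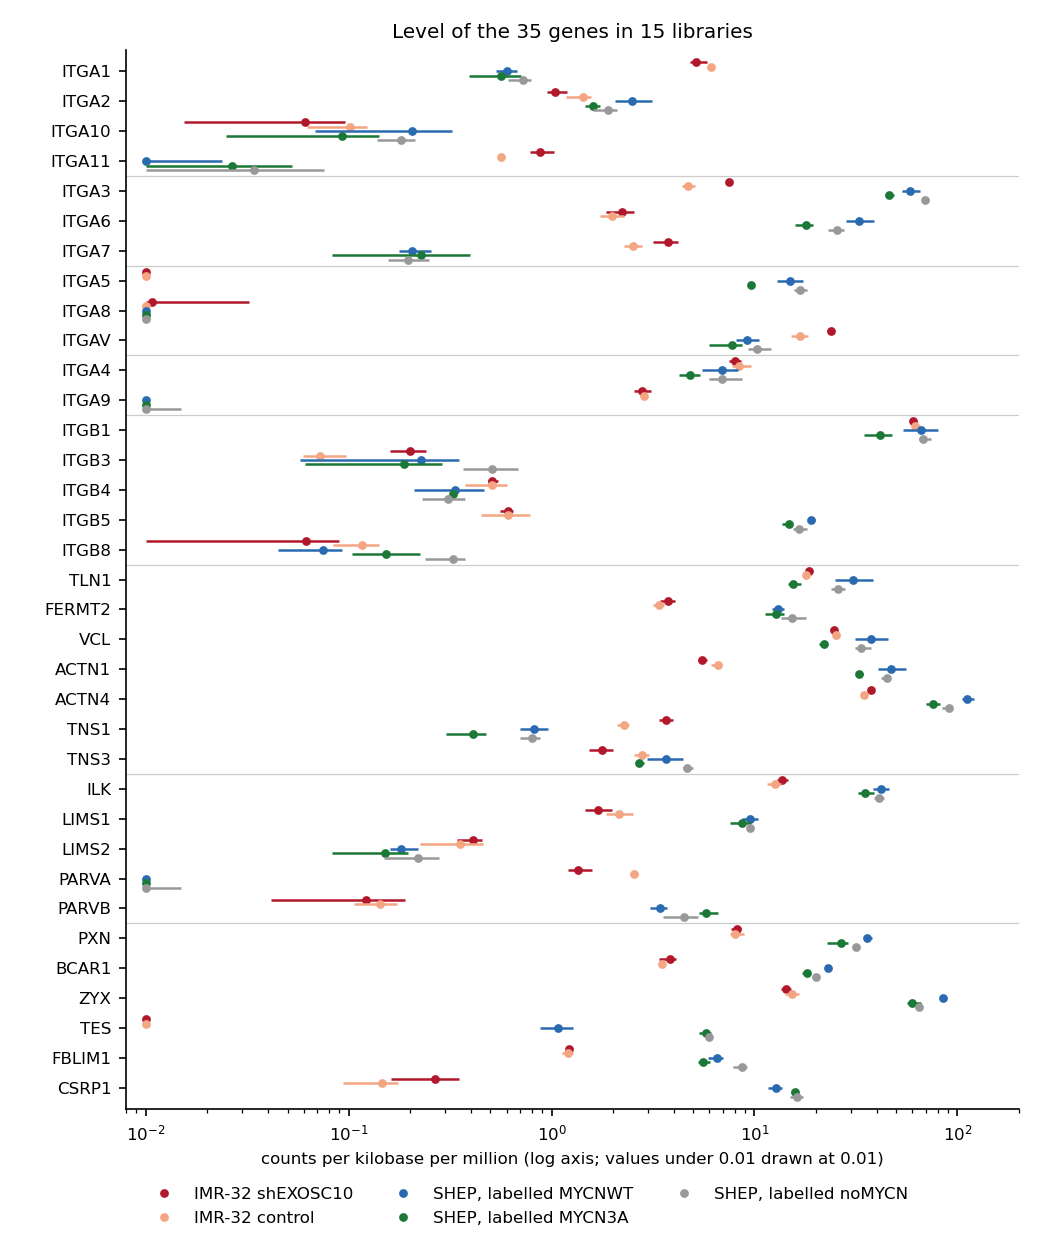
Mean level of each of the 35 genes in CPM per kilobase of exon (log axis) in the 5 groups, ordered by role, with values under 0.01 drawn at 0.01; points are means of 3 libraries and bars run from the lowest to the highest library. ITGB1 is at 41.5 or more in every group, while ITGA5 and TES are at 0 in both IMR-32 groups and ITGA9 and PARVA at or near 0 in all SHEP groups.

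The lines used different subunits. Levels are given here as CPM per kilobase of exon, which allows genes to be compared, but the lines were counted in separate tables, so cell line and table cannot be told apart and no test was made between them. ITGB1, the beta chain shared by most matrix-binding integrins, had mean levels of 60.4 in shEXOSC10 and 61.9 in control libraries, and 66.0 in MYCNWT, 41.5 in MYCN3A and 67.8 in noMYCN libraries. It made up 97.8% and 97.9% of the summed beta chain level in shEXOSC10 and control libraries. In SHEP its share was 76.7% in MYCNWT, 72.6% in MYCN3A and 79.2% in noMYCN libraries, and ITGB5, a partner of the alpha V chain, made up most of the rest with 22.6%, 26.2% and 19.5%. ITGB3, ITGB4 and ITGB8 were each below 0.6 in every group.

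Among the alpha chains, ITGAV, which binds RGD motifs of vitronectin and fibronectin, led in IMR-32 with 23.9 in shEXOSC10 and 16.7 in control libraries. ITGA4, ITGA3, ITGA1, ITGA7 and ITGA9 followed at levels between 2 and 9. In SHEP the laminin receptor chain ITGA3 led with 58.2 in MYCNWT, 45.8 in MYCN3A and 69.2 in noMYCN libraries, followed by ITGA6, another laminin receptor chain, with 32.8, 17.9 and 25.4. ITGA5, the chain of the classical fibronectin receptor, had levels of 14.98, 9.67 and 16.8 in MYCNWT, MYCN3A and noMYCN libraries. It had no count in any of the 6 IMR-32 libraries, which allows up to 0.114 to 0.181 CPM per library at 3 counts (counting error only). This bound is too low if read ends rather than fragments were counted. ITGA9 showed the reverse, with 2.78 in shEXOSC10 and 2.87 in control libraries and at most 2 counts in a SHEP library. ITGA11, a collagen receptor chain, had 63 to 154 counts in IMR-32 and at most 6 in SHEP libraries, ITGA8 had at most 4 counts anywhere, and ITGA10 at most 30.

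A similar pattern was seen in the parvins, which link ILK to actin. PARVA (chr11, 12398732 to 12552348, plus strand, hg19) made up 92.1% of the summed level of PARVA and PARVB in shEXOSC10 and 94.7% in control libraries. In SHEP PARVA had at most 2 counts, and PARVB had levels of 3.42 in MYCNWT, 5.78 in MYCN3A and 4.51 in noMYCN libraries. The PINCH gene LIMS1 exceeded its paralog LIMS2 in both lines, with 80.4% and 85.6% of their sum in shEXOSC10 and control libraries and 97.7% to 98.3% in the SHEP groups. TES (chr7, 115850547 to 115898837, plus strand, hg19), which encodes the LIM protein testin, was at 0 counts in all IMR-32 libraries, and CSRP1, a LIM protein of actin bundles, had 0.267 in shEXOSC10 and 0.145 in control libraries against 12.8, 15.8 and 16.2 in MYCNWT, MYCN3A and noMYCN libraries. ACTN4, a crosslinking alpha-actinin, was the most abundant of the set in SHEP with 111.6, 75.4 and 90.5.

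Promoter windows of 4 genes of the set are printed, chosen for what they hold of 3 short motifs. Other genes that changed in SHEP, among them TLN1, ITGB1, ITGA5 and TNS1, are not printed. The motifs are the E-box CACGTG bound by MYC proteins, the GGAATG core of TEAD factors and the CArG box of SRF. TEAD factors and SRF are known regulators of adhesion genes. Windows run from 250 bases before to 50 after an annotated start and come from RefSeq on GRCh38.p14. Their positions are therefore on another build than the hg19 gene positions above, and which annotated start these cells used was not tested. The window shown is 1 of 2 for TES and for ITGA6 and 1 of 3 for FBLIM1, the one with most of these motifs, and the only one for VCL; the other windows of TES, ITGA6 and FBLIM1 held no match to the CArG box or the E-box. Motifs found on either strand are in capitals: in TES a CArG box that overlaps a TEAD core, and a further TEAD core; in FBLIM1 a CArG box; in VCL a TEAD core; and in ITGA6 an E-box.
TES, chr7:116222703-116223002, plus strand: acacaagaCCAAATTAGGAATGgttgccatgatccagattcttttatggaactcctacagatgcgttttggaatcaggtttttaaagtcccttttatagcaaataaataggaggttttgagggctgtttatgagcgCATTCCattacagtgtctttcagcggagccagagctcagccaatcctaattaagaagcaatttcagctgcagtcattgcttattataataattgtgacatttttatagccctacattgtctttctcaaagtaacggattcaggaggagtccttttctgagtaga
FBLIM1, chr1:15758545-15758844, plus strand: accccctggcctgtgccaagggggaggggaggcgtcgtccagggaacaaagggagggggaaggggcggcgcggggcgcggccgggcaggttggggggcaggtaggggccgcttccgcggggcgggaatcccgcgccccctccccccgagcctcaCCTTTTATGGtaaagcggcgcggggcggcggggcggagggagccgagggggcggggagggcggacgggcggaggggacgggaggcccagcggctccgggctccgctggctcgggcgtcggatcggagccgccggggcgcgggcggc
VCL, chr10:73997866-73998165, plus strand: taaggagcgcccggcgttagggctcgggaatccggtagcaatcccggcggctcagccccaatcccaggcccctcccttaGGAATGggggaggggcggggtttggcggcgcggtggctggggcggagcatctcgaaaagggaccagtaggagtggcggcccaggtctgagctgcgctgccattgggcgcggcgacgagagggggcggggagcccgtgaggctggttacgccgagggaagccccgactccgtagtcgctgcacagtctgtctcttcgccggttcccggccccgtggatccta
ITGA6, chr2:172427086-172427385, plus strand: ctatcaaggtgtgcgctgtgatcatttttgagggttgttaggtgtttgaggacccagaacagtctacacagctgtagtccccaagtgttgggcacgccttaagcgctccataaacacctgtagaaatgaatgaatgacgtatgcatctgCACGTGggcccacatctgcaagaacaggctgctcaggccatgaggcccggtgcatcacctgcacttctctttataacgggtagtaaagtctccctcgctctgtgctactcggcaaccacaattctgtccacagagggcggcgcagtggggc

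Windows were found for 29 of the 35 genes, 61 in all since a gene can have several starts. The E-box was in 2 of the 61 windows (3.28%), those of ILK and ITGA6, against 7.26% of 35116 windows of all genes. The TEAD core was in 10 windows (16.4%), of ACTN1, CSRP1, ITGA10, ITGA5, ITGB1, PXN, TES, TNS1 and VCL, against 14.03% of all windows. The CArG box was in 3 windows (4.92%), of ACTN1, FBLIM1 and TES, against 1.29%. A match describes these letters only.

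The first comparison asked how EXOSC10 depletion changed these genes in IMR-32. Of 32 genes tested, 5 rose (ITGA3, ITGA7, ITGA11, ITGAV and TNS1) and 5 fell (ITGA1, ITGA2, ACTN1, TNS3 and PARVA); of all 17103 genes tested 13.5% were called higher and 13.7% lower, so the share of the set was near that of all genes. Its median log2 change was 0.01, with −0.00 over all genes. The alpha chains and the cytoplasmic linkers moved in both directions, and of the 5 beta chains none passed the test (1, ITGB3, at an unadjusted p under 0.05). ITGA5, ITGA8 and TES had too few counts to be tested.

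Of 3 laminin-binding alpha chains 2 rose, and of 4 that bind collagen 2 fell and 1 rose. ITGA3 had 72.9, 75.6 and 70.6 CPM in shEXOSC10 libraries, against 49.9, 45.9 and 43.2 CPM in control libraries, a log2 change of 0.66 (SE 0.07, adjusted p = 3.54e-11). The groups did not overlap. ITGA7, the muscle laminin receptor chain, had 24.7, 26.7 and 20.2 CPM in shEXOSC10 libraries, against 17.9, 14.5 and 15.9 CPM in control libraries, with a log2 change of 0.56 (SE 0.12, adjusted p = 0.000113). All shEXOSC10 libraries were above all control libraries. ITGAV had 187, 199 and 202 CPM in shEXOSC10 libraries, against 125, 135 and 151 CPM in control libraries, a log2 change of 0.52 (SE 0.06, adjusted p = 7.78e-12), again with no overlap. Its share of the summed alpha chain level was 43.2% ± 0.481 in shEXOSC10 and 36.7% ± 1.87 in control libraries (SD, n = 3 each). ITGA1, a collagen and laminin receptor chain, had 89.8, 88.9 and 108.7 CPM in shEXOSC10 libraries, against 109.2, 115.8 and 116 CPM in control libraries, with a log2 change of −0.24 (SE 0.06, adjusted p = 0.0023). The highest shEXOSC10 library lay just below the lowest control library, and 5.63% of this gene's exon bases are shared with an overlapping gene on the same strand. ITGA2, the alpha chain of a collagen receptor, had 7.55, 9.43 and 7.63 CPM in shEXOSC10 libraries, against 12.3, 12.2 and 9.33 CPM in control libraries, with a log2 change of −0.47 (adjusted p = 0.0211). Its groups overlapped. ITGA11 had 4.71, 4.47 and 5.84 CPM in shEXOSC10 libraries, against 3.26, 3.09 and 3.24 CPM in control libraries, a log2 change of 0.66 (adjusted p = 0.0316), without overlap.

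The main beta chain, ITGB1, averaged 370.2 ± 5.16 CPM in shEXOSC10 libraries and 379 ± 17.5 CPM in control libraries (SD, n = 3 each), a log2 change of −0.03 (SE 0.04, adjusted p = 0.623). ITGB3, the partner of ITGAV in the vitronectin receptor, had means of 0.981 and 0.354 CPM in shEXOSC10 and control libraries (log2 change 1.47, adjusted p = 0.0537); 56.7% of its exon bases are shared with an overlapping gene on the same strand, so its counts are uncertain.

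**Figure D2:**
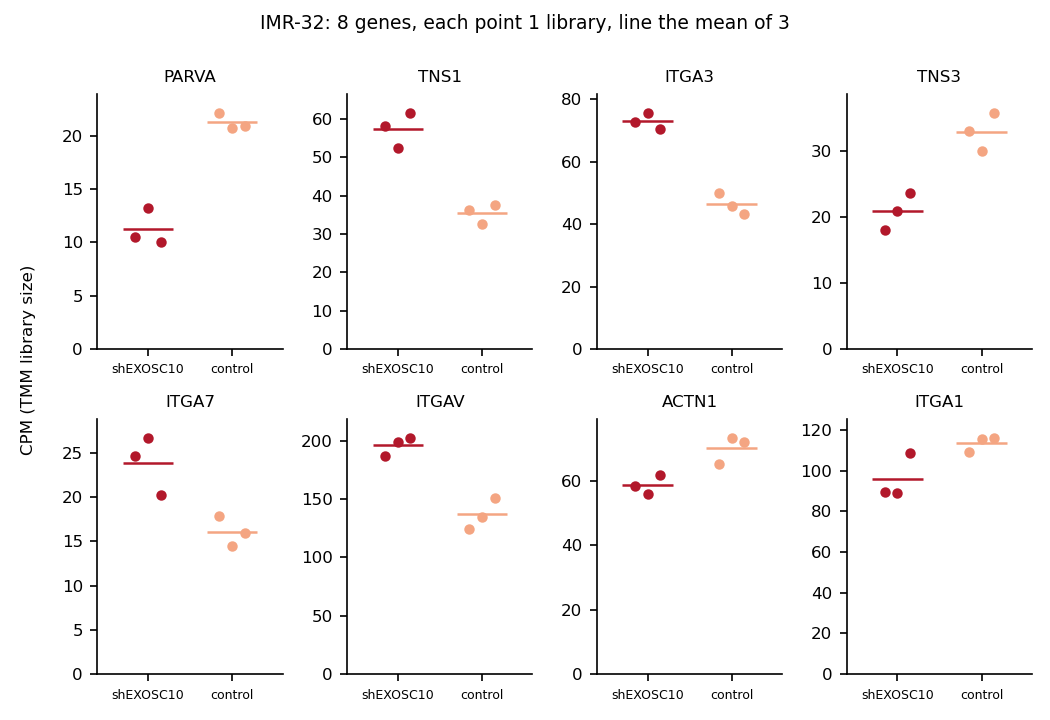
CPM of 8 genes in each IMR-32 library (points, 3 per group) with the group mean (line), shEXOSC10 left of control. The genes were chosen among those called without overlap between groups. PARVA, TNS3, ACTN1 and ITGA1 are lower and TNS1, ITGA3, ITGA7 and ITGAV higher in shEXOSC10 libraries.

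Inside the cell, PARVA fell most. It had 10.5, 13.2 and 10.0 CPM in shEXOSC10 libraries, against 22.1, 20.8 and 20.9 CPM in control libraries, a log2 change of −0.93 (SE 0.13, adjusted p = 9.71e-09). The groups were well apart, and its complex partners ILK, LIMS1, LIMS2 and PARVB had log2 changes of 0.11, −0.34, 0.22 and −0.28 that did not pass the test. The tensins, which bind beta tails and actin, went opposite ways. TNS1 had 58.2, 52.5 and 61.5 CPM in shEXOSC10 libraries, against 36.2, 32.7 and 37.7 CPM in control libraries, a log2 change of 0.70 (SE 0.08, adjusted p = 1.72e-10); 9.39% of its exon bases are shared with an overlapping gene on the same strand. TNS3 had 18.0, 21.0 and 23.8 CPM in shEXOSC10 libraries, against 33.1, 30.0 and 35.8 CPM in control libraries, a log2 change of −0.65 (SE 0.10, adjusted p = 6.19e-07). Neither tensin's groups overlapped. ACTN1, an alpha-actinin of stress fibres, had 58.3, 55.9 and 61.8 CPM in shEXOSC10 libraries, against 65.2, 73.3 and 72.2 CPM in control libraries (log2 change −0.26, SE 0.07, adjusted p = 0.0042); 2.82% of its exon bases are shared in the same way. Among the other receptor chains ITGA4 (−0.05), ITGA6 (0.16), ITGA9 (−0.04), ITGA10 (−0.75), ITGB4 (0.00), ITGB5 (0.00) and ITGB8 (−0.92) did not pass. Talin TLN1 (0.05), vinculin VCL (−0.04), ACTN4 (0.12), kindlin-2 gene FERMT2 (0.15) and the adaptors PXN (0.04), BCAR1 (0.14), ZYX (−0.09), FBLIM1 (0.01) and CSRP1 (0.87, adjusted p = 0.0592) had log2 changes that did not pass the test. Among the 12 alternatives ACTN4 was called higher in 3, DESeq2 (adjusted p = 0.0481) among them, LIMS1 was called lower in 4, and CSRP1 and ITGB3 were called higher in 1 each.

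Of the 10 calls, 8 held in all 12 alternatives. The call of ITGA2 was lost without control replicate 1 or 2 or shEXOSC10 replicate 1 or 3 (adjusted p 0.0846 to 0.099), and that of ITGA11 without any 1 control replicate, without shEXOSC10 replicate 3 or with no low-count filter (adjusted p 0.0509 to 0.194).

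In SHEP the set was first compared between libraries labelled MYCNWT and noMYCN. Of 31 genes tested, 3 rose (ITGA6, ACTN4 and ZYX) and 7 fell (ITGA3, ITGB8, TNS3, PARVB, TES, FBLIM1 and CSRP1), against 10.9% higher and 11.3% lower among all 14923 genes tested. The median log2 change was 0.00, with −0.00 over all genes. TES and ITGB8 fell most, and were the only genes of the set past a log2 change of 2 in the 4 comparisons. ITGA8, ITGA9, ITGA11 and PARVA had too few counts to be tested.

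TES had 3.74, 5.45 and 4.66 CPM in MYCNWT libraries, against 25.8, 24.6 and 26.1 CPM in noMYCN libraries, a log2 change of −2.47 (SE 0.16, adjusted p = 1.32e-10). These are 55 to 76 counts in MYCNWT and 329 to 416 counts in noMYCN libraries, so the groups lay far apart. FBLIM1, which encodes the filamin-binding LIM protein migfilin, had 27.9, 31.5 and 32.8 CPM in MYCNWT libraries, against 41.8, 37.0 and 43.3 CPM in noMYCN libraries, a log2 change of −0.41 (SE 0.12, adjusted p = 0.0136). CSRP1 had 119.9, 133.6 and 141 CPM in MYCNWT libraries, against 154.5, 169 and 178 CPM in noMYCN libraries, a log2 change of −0.35 (SE 0.09, adjusted p = 0.00506). All MYCNWT libraries were below all noMYCN libraries for both. Zyxin, a LIM protein of tensed focal adhesions, went the other way: ZYX had 308, 287 and 288 CPM in MYCNWT libraries, against 221, 233 and 223 CPM in noMYCN libraries, a log2 change of 0.38 (SE 0.08, adjusted p = 0.00131).

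Among the receptors, ITGA6 had 261, 210.5 and 189 CPM in MYCNWT libraries, against 185, 171 and 155 CPM in noMYCN libraries, a log2 change of 0.37 (SE 0.11, adjusted p = 0.0129). The lowest MYCNWT library was only just above the highest noMYCN library. ITGA3 had 641, 543 and 525 CPM in MYCNWT libraries, against 691, 678 and 666 CPM in noMYCN libraries, a log2 change of −0.25 (SE 0.09, adjusted p = 0.0378). The share of ITGA6 in the summed alpha chain level was 26.1% ± 0.771 in MYCNWT and 19.3% ± 0.739 in noMYCN libraries, and that of ITGA3 was 46.4% and 52.6% (means, n = 3 each). ITGB8, a partner of ITGAV that activates latent TGF-beta, had 0.68, 1.29 and 1.41 CPM in MYCNWT libraries, against 5.70, 5.60 and 3.60 CPM in noMYCN libraries (log2 change −2.14, SE 0.36, adjusted p = 0.000129); it rested on 10 to 20 counts in MYCNWT libraries. ACTN4 had 738, 663 and 642 CPM in MYCNWT libraries, against 569, 572 and 515 CPM in noMYCN libraries, a log2 change of 0.30 (SE 0.09, adjusted p = 0.0129) with no overlap. TNS3 and PARVB had log2 changes of −0.35 (adjusted p = 0.0444) and −0.40 (adjusted p = 0.0456). ITGB1 (−0.04), TLN1 (0.24), VCL (0.16), ITGA5 (−0.16), ITGAV (−0.16) and ILK (0.03) did not pass the test. Nor did ITGA1 (−0.26), ITGA2 (0.39), ITGA4 (0.00), ITGA7 (0.06), ITGA10 (0.19), ITGB3 (−1.16), ITGB4 (0.13), ITGB5 (0.20), FERMT2 (−0.23), ACTN1 (0.06), TNS1 (0.03), LIMS1 (−0.00), LIMS2 (−0.28), PXN (0.18) and BCAR1 (0.20). Among the 17 alternatives BCAR1 was called higher in 3, DESeq2 (adjusted p = 0.0344) among them, and FERMT2 lower in 3, ITGA2 higher and ITGA5 lower in 2 each, and ITGB5 and TLN1 higher in 1 each.

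Only TES, ITGB8, ZYX and CSRP1 kept their call in all 17 alternatives. The call was lost without 1 library for ITGA3 and TNS3 (any noMYCN replicate, MYCNWT replicate 2 or 3, or MYCN3A replicate 2; adjusted p 0.0538 to 0.224 for ITGA3 and 0.0584 to 0.232 for TNS3), for PARVB (noMYCN replicate 2 or 3, any MYCNWT replicate, or MYCN3A replicate 2; 0.0566 to 0.257), for FBLIM1 (noMYCN replicate 1 or 3 or MYCNWT replicate 2; 0.0532 to 0.0707), for ITGA6 (noMYCN replicate 3 or MYCNWT replicate 1, and with library totals for scaling; 0.0576 to 0.0822) and for ACTN4 (noMYCN replicate 3; 0.0858).

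**Figure D3:**
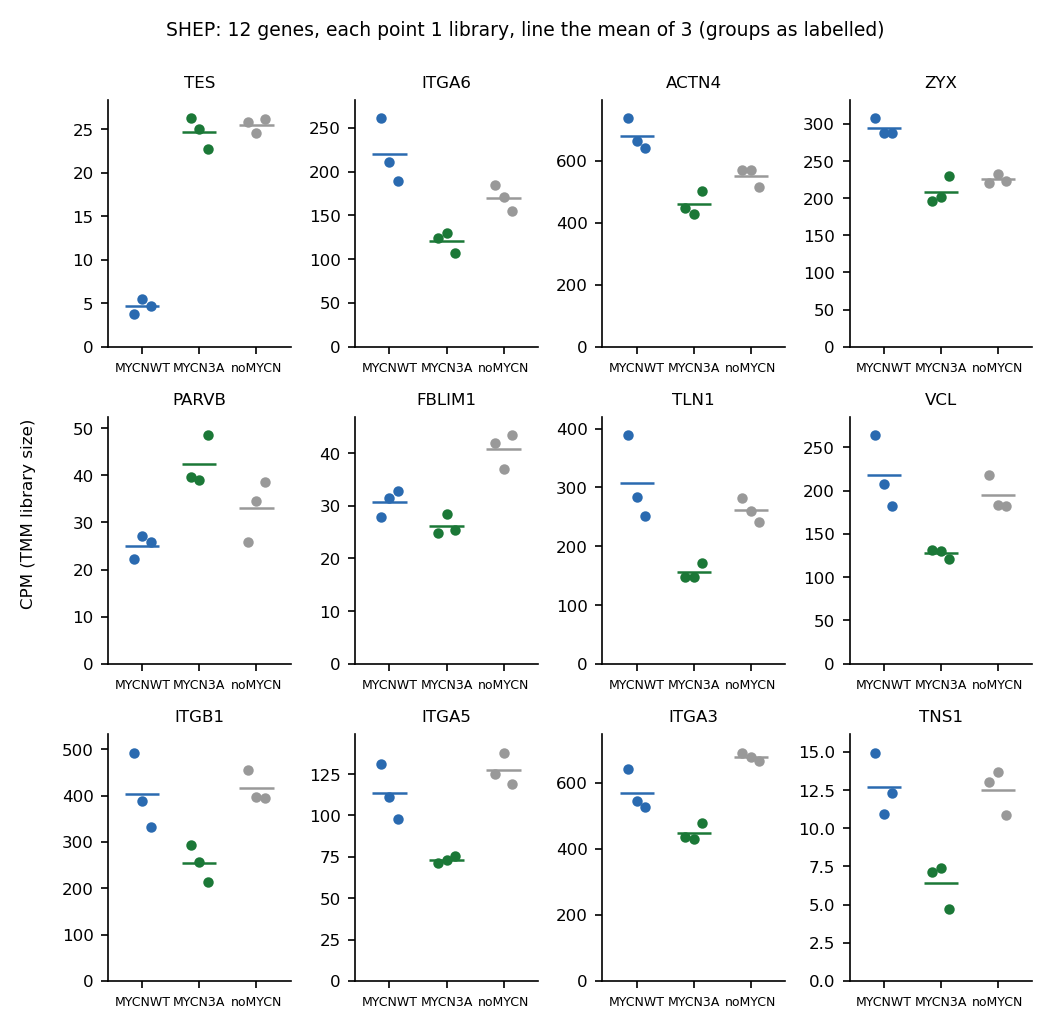
CPM of 12 genes in each SHEP library (points, 3 per group) with the group mean (line), in the order MYCNWT, MYCN3A, noMYCN. TES is at 3.74 to 5.45 CPM in MYCNWT libraries and at 22.7 or more in all others, while TLN1, VCL, ITGB1 and ITGA5 are lowest in MYCN3A libraries.

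In libraries labelled MYCN3A the main receptor chains and most links to actin fell. Of the 31 genes tested 15 fell and none rose by edgeR's test, while 1, PARVB, was higher at an unadjusted p under 0.05 and by DESeq2, against 12.8% lower and 12.7% higher among all genes tested. The median log2 change of the set was −0.41 in MYCN3A against noMYCN libraries, and −0.04 over all genes. The noMYCN libraries are the same as in the comparison before, so the values of the 2 comparisons are not independent. By role, 6 of 7 linkers to actin fell, as did both laminin chains that were abundant, both RGD-binding chains tested, ITGA4, ITGB1, ITGB8, PXN and FBLIM1. The 3 collagen-binding chains and 4 ILK complex genes tested did not pass.

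ITGA5 had 71.5, 73.1 and 75.2 CPM in MYCN3A libraries, against 125, 138 and 119 CPM in noMYCN libraries, a log2 change of −0.80 (SE 0.10, adjusted p = 1.34e-05). ITGB1, its beta partner, had 293, 256 and 213.5 CPM in MYCN3A libraries, against 456, 396 and 394 CPM in noMYCN libraries, a log2 change of −0.71 (SE 0.12, adjusted p = 0.000235). Neither gene's groups overlapped. ITGA3 had 436, 431 and 479 CPM in MYCN3A libraries, against 691, 678 and 666 CPM in noMYCN libraries (log2 change −0.60, SE 0.09, adjusted p = 5.78e-05). ITGA6 had 124, 129.9 and 107 CPM in MYCN3A libraries, against 185, 171 and 155 CPM in noMYCN libraries (log2 change −0.50, SE 0.11, adjusted p = 0.00159). Both laminin chains were lower in all MYCN3A libraries. ITGAV had 71.3, 71.0 and 49.1 CPM in MYCN3A libraries, against 99.1, 76.7 and 78.0 CPM in noMYCN libraries, a log2 change of −0.41 (SE 0.13, adjusted p = 0.0247). Its groups were apart by a narrow margin. ITGA4, a fibronectin and VCAM1 receptor chain, and ITGB8 had log2 changes of −0.53 (adjusted p = 0.0124) and −1.10 (adjusted p = 0.0185).

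TLN1, which binds the beta tail and activates the receptor, had 148, 148 and 171.5 CPM in MYCN3A libraries, against 282, 261 and 240.4 CPM in noMYCN libraries, a log2 change of −0.745 (SE 0.12, adjusted p = 0.00012). VCL, which reinforces the talin to actin link under force, had 131, 130.2 and 121 CPM in MYCN3A libraries, against 218, 184 and 182 CPM in noMYCN libraries, a log2 change of −0.61 (SE 0.11, adjusted p = 0.000362). All MYCN3A libraries were below all noMYCN libraries for both. TNS1 had 7.16, 7.38 and 4.73 CPM in MYCN3A libraries, against 13.02, 13.7 and 10.9 CPM in noMYCN libraries, a log2 change of −0.96 (SE 0.19, adjusted p = 0.00103). TNS3 had 33.6, 31.5 and 30.8 CPM in MYCN3A libraries, against 58.5, 52.4 and 53.6 CPM in noMYCN libraries (log2 change −0.78, SE 0.13, adjusted p = 0.000159). The tensins thus both fell, without overlap. ACTN1 had 335, 349 and 364 CPM in MYCN3A libraries, against 489, 496 and 446 CPM in noMYCN libraries (log2 change −0.45, SE 0.10, adjusted p = 0.00169). ACTN4 had 449, 429.5 and 502 CPM in MYCN3A libraries, against 569, 572 and 515 CPM in noMYCN libraries (log2 change −0.26, SE 0.09, adjusted p = 0.0277). The alpha-actinin groups did not overlap, ACTN4 by a narrow margin. FBLIM1 had 24.8, 28.4 and 25.4 CPM in MYCN3A libraries, against 41.8, 37.0 and 43.3 CPM in noMYCN libraries (log2 change −0.64, SE 0.12, adjusted p = 0.000528). The genes that did not pass were ITGA1 (−0.36), ITGA2 (−0.24), ITGA7 (0.22), ITGA10 (−0.95), ITGB3 (−1.45), ITGB4 (0.10), ITGB5 (−0.17), FERMT2 (−0.27), ILK (−0.24), LIMS1 (−0.12), LIMS2 (−0.54), BCAR1 (−0.15), ZYX (−0.11), CSRP1 (−0.04), TES and PARVB. PXN, a scaffold of focal adhesions, had a log2 change of −0.26 (adjusted p = 0.0358). TES had 26.3, 24.97 and 22.7 CPM in MYCN3A libraries, against 25.8, 24.6 and 26.1 CPM in noMYCN libraries, with overlapping groups (log2 change −0.05, adjusted p = 0.831), and PARVB had a log2 change of 0.36 (adjusted p = 0.0561; called higher by DESeq2, under 5 other settings and without noMYCN replicate 3 or MYCNWT replicate 1 or 3). Among the others, ITGB3 was called lower by DESeq2 (adjusted p = 0.0419) and in 8 further alternatives, ILK in 8 and FERMT2 in 7 of the 17, ZYX in 2, and ITGB5 and BCAR1 in 1 each, with library totals.

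**Figure D4:**
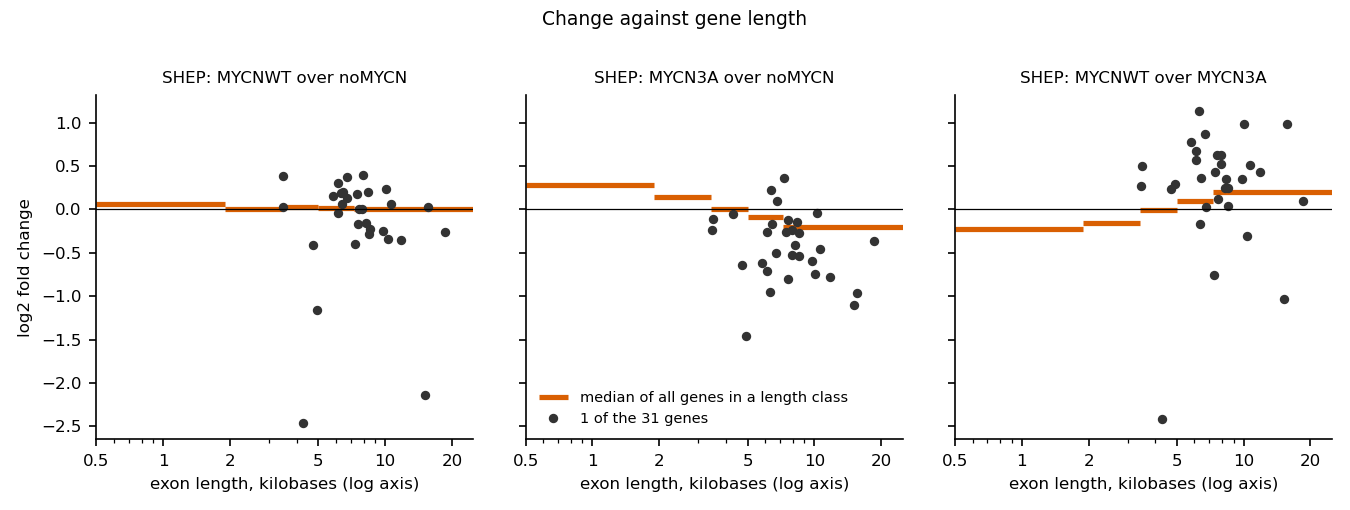
Log2 fold change against exon length in kilobases (log axis) for the 31 genes tested (points), with the median of all well-counted genes in 5 classes of length (lines), in the 3 SHEP comparisons. The lines slope down for MYCN3A over noMYCN and up for MYCNWT over MYCN3A, and are flat for MYCNWT over noMYCN; the 31 genes all lie in the 3 longer classes.

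Fold changes in the MYCN3A libraries also moved with exon length, and this set is long. Among genes with a mean log2 CPM of at least 3, the median log2 change of MYCN3A against noMYCN was 0.29 for genes with 53 to 1889 exon bases and −0.21 for genes with 7242 to 91667 bases, where 30.3% of genes were called lower. Of the 31 genes tested 18 were in the class of longest exons, 8 in the next, 5 in the middle one and none in the other 2. The same medians were 0.06 and 0.00 for MYCNWT against noMYCN. Single libraries differed in this trend. In MYCNWT replicates 1 to 3 the longest class lay a median of 0.197, 0.047 and −0.04 log2 CPM from the gene means. These values were 0.122, 0.057 and 0.015 in noMYCN and −0.093, −0.111 and −0.171 in MYCN3A replicates 1 to 3. With the trend with length removed in each library, an alternative added after these values were seen, 12 genes of the set fell and 1 rose in MYCN3A libraries, against 11.5% lower and 11.4% higher among all genes, and their median log2 change was −0.25. The log2 changes then were −0.66 for ITGA5, −0.62 for ITGB1, −0.54 for TLN1, −0.54 for VCL, −0.69 for TNS1, −0.55 for TNS3, −0.40 for ITGA3, −0.39 for ITGA6 and −0.62 for FBLIM1, all of which passed. The calls of ITGAV (adjusted p = 0.102), ITGB8 (0.0923), ACTN4 (0.0984) and PXN (0.333) were lost, and ILK (−0.31, adjusted p = 0.00775) and PARVB (0.50, adjusted p = 0.0128) gained one. What gave the trend was not tested. With library totals in place of TMM scaling, all genes shifted by a median of −0.10 in MYCN3A against noMYCN, 29.6% of called genes were higher against 49.7% with TMM, and 21 genes of the set fell; for MYCNWT against noMYCN the split was 35.1% against 49.3%. In IMR-32 the medians by length ran from −0.11 to 0.03.

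Without 1 library the call was lost for ITGAV and ITGA4 (noMYCN replicate 1 or MYCN3A replicate 3; adjusted p up to 0.183 and 0.143), for ITGB8 (noMYCN replicate 1 or 2 or MYCN3A replicate 1 or 2; 0.0635 to 0.0915) and for ACTN4 and PXN (these 4 or MYCNWT replicate 2, and for PXN also noMYCN replicate 3; 0.068 to 0.138 and 0.0511 to 0.189). The other 10 calls held in all 17 alternatives. Calls over all genes numbered 3806 and fell to 2166 without noMYCN replicate 1 and 2508 without noMYCN replicate 2.

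The comparison of MYCNWT with MYCN3A libraries sets libraries labelled for wild-type MYCN beside those labelled for the mutant with impaired RNA binding, both with doxycycline. Of 31 genes, 17 were higher and 4 lower in MYCNWT libraries, against 15.8% higher and 14.5% lower among all genes tested, and the median log2 change was 0.35, with 0.00 over all genes. It uses the same libraries as the comparisons before. By role, 6 of 7 linkers to actin were higher, with ITGA2, ITGA3, ITGA4, ITGA5, ITGA6, ITGB1, ITGB5, ILK, PXN, BCAR1 and ZYX; the lower ones were TES, CSRP1, PARVB and ITGB8.

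TES had 3.74, 5.45 and 4.66 CPM in MYCNWT libraries, against 26.3, 24.97 and 22.7 CPM in MYCN3A libraries, a log2 change of −2.42 (SE 0.16, adjusted p = 6.83e-10). With the length trend removed it was −2.42 as well, and the groups lay far apart. PARVB had 22.3, 27.1 and 25.8 CPM in MYCNWT libraries, against 39.8, 38.9 and 48.5 CPM in MYCN3A libraries, a log2 change of −0.76 (SE 0.14, adjusted p = 0.000308). These genes, with CSRP1 (−0.31, adjusted p = 0.00961) and ITGB8 (−1.04, adjusted p = 0.0439), went against the direction of most of the set.

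TLN1 had 388.5, 283 and 251 CPM in MYCNWT libraries, against 148, 148 and 171.5 CPM in MYCN3A libraries, a log2 change of 0.98 (SE 0.12, adjusted p = 2.13e-06). VCL had 264, 207 and 182 CPM in MYCNWT libraries, against 131, 130.2 and 121 CPM in MYCN3A libraries, a log2 change of 0.77 (SE 0.11, adjusted p = 1.67e-05). MYCNWT replicate 1 was the highest and replicate 3 the lowest of its group for both, and no library overlapped. TNS1 had 14.95, 10.96 and 12.3 CPM in MYCNWT libraries, against 7.16, 7.38 and 4.73 CPM in MYCN3A libraries, a log2 change of 0.99 (SE 0.19, adjusted p = 0.000534). TNS3 had 52.5, 41.6 and 35.02 CPM in MYCNWT libraries, against 33.6, 31.5 and 30.8 CPM in MYCN3A libraries (log2 change 0.43, SE 0.13, adjusted p = 0.0128). The lowest MYCNWT library lay close to the highest MYCN3A library for TNS3. ACTN1 had 590, 476 and 430.3 CPM in MYCNWT libraries, against 335, 349 and 364 CPM in MYCN3A libraries (log2 change 0.51, SE 0.10, adjusted p = 0.00035). ACTN4 had 738, 663 and 642 CPM in MYCNWT libraries, against 449, 429.5 and 502 CPM in MYCN3A libraries (log2 change 0.565, SE 0.09, adjusted p = 4.12e-05). All MYCNWT libraries were above all MYCN3A libraries for both alpha-actinins.

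ITGA6 had 261, 210.5 and 189 CPM in MYCNWT libraries, against 124, 129.9 and 107 CPM in MYCN3A libraries, a log2 change of 0.87 (SE 0.11, adjusted p = 3.01e-06). ITGB1 had 493, 388 and 332 CPM in MYCNWT libraries, against 293, 256 and 213.5 CPM in MYCN3A libraries, a log2 change of 0.67 (SE 0.12, adjusted p = 0.000213). ITGA5 had 131, 111 and 98.1 CPM in MYCNWT libraries, against 71.5, 73.1 and 75.2 CPM in MYCN3A libraries, a log2 change of 0.63 (SE 0.10, adjusted p = 6.37e-05). None of these receptor chains overlapped between the groups. ITGA2 had 24.8, 18.1 and 16.2 CPM in MYCNWT libraries, against 13.7, 11.6 and 12.9 CPM in MYCN3A libraries, a log2 change of 0.63 (SE 0.17, adjusted p = 0.00701), without overlap. ITGA3, ITGA4 and ITGB5 had log2 changes of 0.35, 0.53 and 0.37. Among the adaptors, ZYX had 308, 287 and 288 CPM in MYCNWT libraries, against 196, 201 and 229.5 CPM in MYCN3A libraries, a log2 change of 0.50 (SE 0.08, adjusted p = 9.27e-05). The genes that did not pass were ITGA1 (0.10), ITGA7 (−0.16), ITGA10 (1.14), ITGAV (0.25), ITGB3 (0.29), ITGB4 (0.03), FERMT2 (0.04), LIMS1 (0.12), LIMS2 (0.25) and FBLIM1 (0.23). PXN, BCAR1, an adaptor of SRC signalling, and the pseudokinase gene ILK had 0.43, 0.35 and 0.27, the last with overlapping groups.

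The length trend ran the other way here, with a median log2 change of −0.23 for the shortest class and 0.20 for the longest, where 34% of genes were called higher. With it removed, 14 genes were higher and 4 lower, against 14.3% in each direction among all genes, and the median was 0.24; TLN1 had 0.77, ITGA6 0.74, VCL 0.68, TNS1 0.72, ITGB1 0.56 and ITGA5 0.48, and the calls of ITGA3 (adjusted p = 0.13), TNS3 (0.165) and BCAR1 (0.0815) were lost. Without MYCNWT replicate 1 those of ITGA2, ITGA4 and TNS3 were lost (adjusted p 0.0683, 0.0706 and 0.117), without MYCN3A replicate 3 those of ITGA4 (0.0608) and ITGB8 (0.281), and without MYCNWT replicate 2 those of ITGB8 (0.0658) and ILK (0.0772); ILK also lost its call without MYCNWT replicate 3 or MYCN3A replicate 1 or 2 (0.105 to 0.121), and ITGB8 without noMYCN replicate 1 or 2 or MYCNWT replicate 1 (0.0557 to 0.18). With both MYCNWT replicate 1 and MYCN3A replicate 3 left out, CSRP1 lost its call (edgeR adjusted p = 0.0781), as did ITGB8, ITGA2, ITGA4 and TNS3. The call was kept in all 17 alternatives by 13 genes, among them TES, PARVB, TLN1, VCL, TNS1, ITGB1, ITGA5 and ITGA6.

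**Figure D5:**
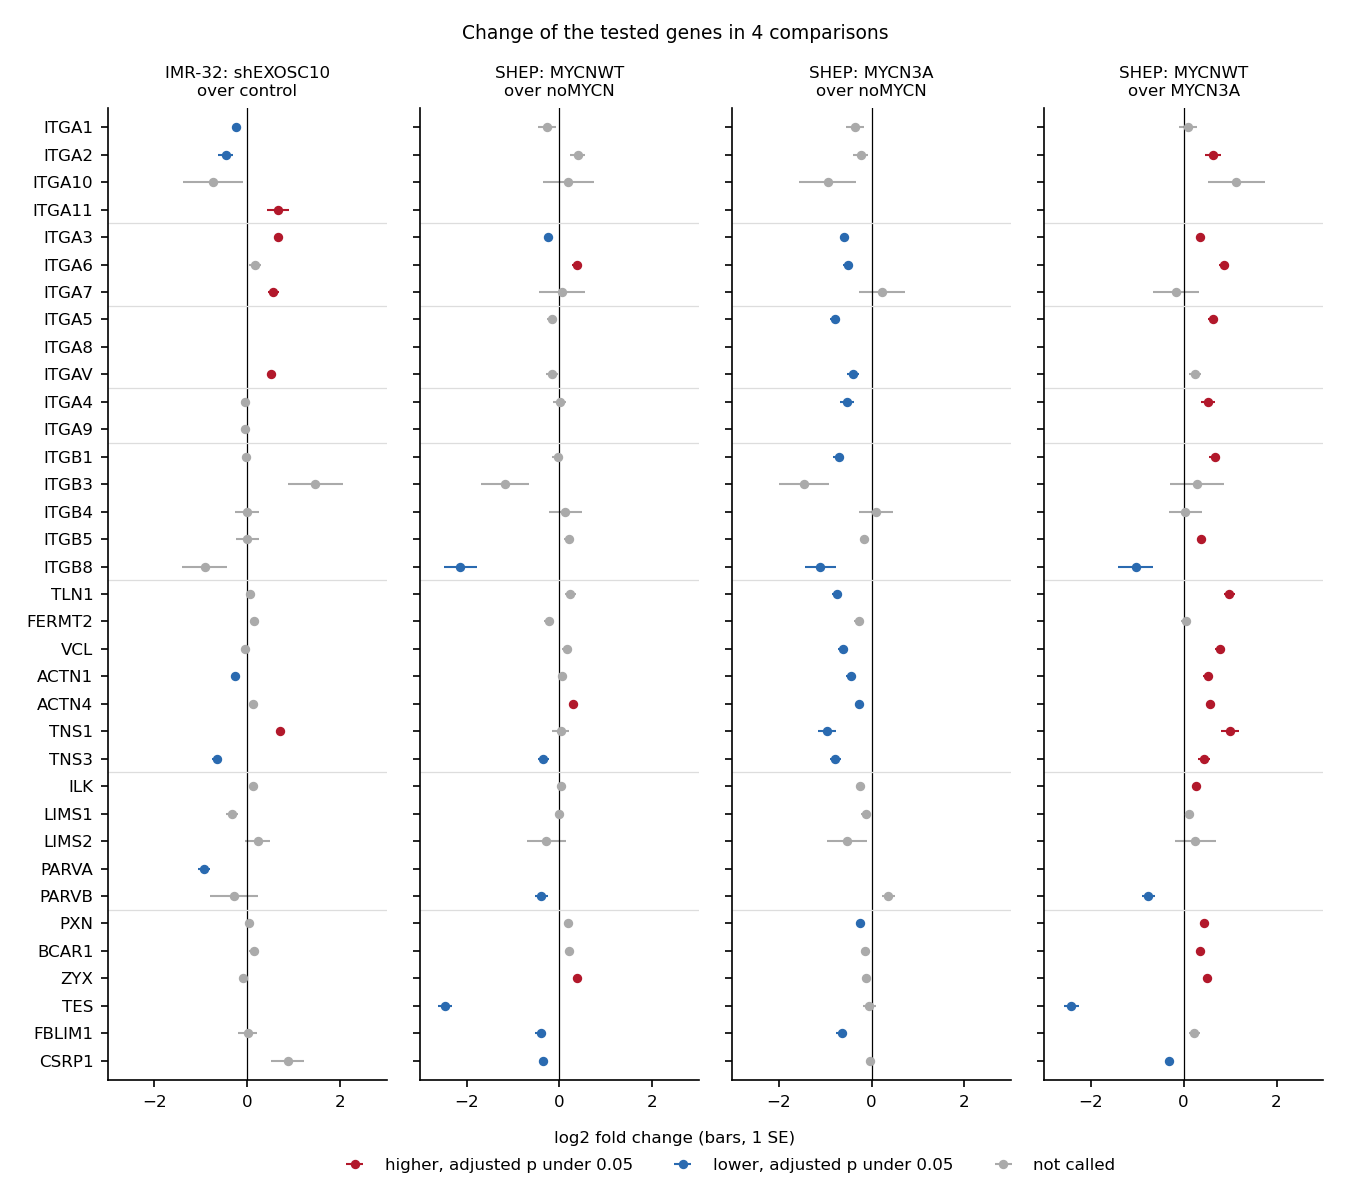
Log2 fold change of each gene in the 4 comparisons (points; bars are 1 SE), ordered by role, red where called higher, blue where called lower and grey where not called. Of the 7 linkers to actin 6 are blue left of 0 for MYCN3A over noMYCN and 6 red right of 0 for MYCNWT over MYCN3A, and TES is at −2.47 over noMYCN and −2.42 over MYCN3A in MYCNWT libraries.

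Several genes were called in opposite directions by 2 comparisons. ITGA3 rose in shEXOSC10 libraries of IMR-32 and fell in both SHEP groups with doxycycline, ITGAV and TNS1 rose in shEXOSC10 and fell in MYCN3A libraries, and ACTN1, TNS3 and ITGA2 fell in shEXOSC10 libraries and were higher in MYCNWT than in MYCN3A libraries. Against noMYCN, however, TNS3 fell in MYCNWT (−0.35) and MYCN3A (−0.78) libraries and ACTN1 fell in MYCN3A libraries (−0.45), the direction they had in shEXOSC10 libraries. ITGA6 and ACTN4 rose in MYCNWT and fell in MYCN3A libraries, each against noMYCN. Some of these calls were lost in part of the alternatives. The falls of ITGA3 in MYCNWT and ITGAV in MYCN3A libraries were lost in 6 and 4 of 17. That of ITGA2 in shEXOSC10 libraries was lost in 4 of 12. TNS3 in MYCNWT and ACTN4 in MYCN3A libraries lost their falls in 7 and 6 of 17. The rises of ITGA6 and ACTN4 in MYCNWT libraries were lost in 3 and 1. In MYCNWT against MYCN3A libraries TNS3 lost its call in 3 and ITGA2 in 2. Differences between the lines were not tested.

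Other genes of adhesion were read from lists of related function. Of all genes tested 13.5% were called higher and 13.7% lower in shEXOSC10, 10.9% and 11.3% in MYCNWT and 12.7% and 12.8% in MYCN3A libraries, and 15.8% and 14.5% in MYCNWT against MYCN3A libraries, which is the background of the counts given for each list. Among 34 signalling genes and regulators of adhesion, 3 rose and 6 fell of 31 tested in shEXOSC10 libraries, 7 and 7 of 33 in MYCNWT, 1 and 14 in MYCN3A, and 16 were higher and 1 lower in MYCNWT against MYCN3A libraries. FYN, a SRC family kinase, fell by 0.57 on the log2 scale in shEXOSC10 libraries, as did ASAP1 (−0.36), while TGFB1I1, the paxillin relative HIC-5, rose (0.61). CAV1, the caveola coat protein, fell in both MYCNWT (−0.54) and MYCN3A (−0.53) libraries, KANK1 (0.95) and APBB1IP (0.83), a RAP1 effector that recruits talin, rose in MYCNWT libraries, and KANK2 (−0.70) and NEDD9 (−1.19) fell in MYCN3A libraries. Against MYCN3A, APBB1IP (1.12), LPXN (1.44) and YES1 (0.86) were higher in MYCNWT libraries. The median log2 changes of the signalling list were −0.035, 0.013, −0.315 and 0.254 in these 4 comparisons in turn, with −0.001, −0.004, −0.038 and 0.003 over all genes; those of the actin list described next were −0.06, 0.126, −0.194 and 0.268, and of the ligands 0.262, −0.375, −0.719 and 0.382.

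Of 32 actin and stress fibre genes, 7 rose and 13 fell of 30 tested in shEXOSC10 libraries, led by ACTB (−0.58), TPM1 (0.85) and FLNC (−0.51). In MYCNWT libraries 6 rose and 6 fell of 28, led by MYL12A (0.57), TAGLN (−0.60) and TAGLN2 (−0.36); in MYCN3A libraries 2 rose and 10 fell, among them TPM2 (0.59) and MYH9 (−0.57). MYCNWT exceeded MYCN3A libraries for 15 and was below for 4, with TPM4 (0.70) and MYH9 (0.71) among the higher ones. Of 31 integrin ligands, 11 rose and 2 fell of 23 tested in shEXOSC10 libraries, where COL4A1 (1.82) and COL4A2 (1.46), chains of basement membrane collagen, rose and TNC (−1.43) fell. In SHEP 2 rose and 12 fell of 26 in MYCNWT and 1 rose and 19 fell in MYCN3A libraries, with COL1A1 (−1.81 and −0.89) and COL5A1 (−1.75 and −1.21) in both, COL1A2 (−1.68) in MYCNWT and THBS1 (−1.05) in MYCN3A. Between MYCNWT and MYCN3A 12 were higher and 3 lower, among them NID1 (0.86), EDIL3 (0.89) and COL1A1 (−0.92). Of 10 paralogs of the set 4 to 6 were tested; TNS2 rose in shEXOSC10 libraries (1.64) and fell in MYCNWT (−1.16) and MYCN3A (−0.78) libraries, TLN2 had 0.31 in shEXOSC10, −0.46 in MYCN3A and 0.44 in MYCNWT against MYCN3A libraries, and CSRP2 fell in shEXOSC10 libraries (−0.63). With the length trend removed, the genes higher and lower in MYCNWT against MYCN3A libraries numbered 11 and 2 of the signalling list, 13 and 6 of the actin list and 10 and 7 of the ligands, and of the 4 paralogs 0 and 1, against 1 and 0 before, so the call of TLN2 was lost. In MYCN3A against noMYCN libraries they then numbered 1 and 13 of the signalling list, 3 and 12 of the actin list, 1 and 20 of the ligands and 0 and 1 of the paralogs.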

How the data were processed

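The authors deposited whole-number counts per gene. Per the submitters' processing notes reads were aligned with STAR 2.7.10a and counted with featureCounts 2.0.3; per the file headers the SHEP table was counted on the reverse strand with reads assigned to all overlapping genes, on hg19 with Ensembl GRCh37 annotation. The IMR-32 table gives no counting settings in the sources used here and holds the same genes and lengths. Most low counts were even, so read ends rather than fragments may have been counted. Genes passing edgeR's filterByExpr (17103 in IMR-32, 14923 in SHEP) were tested with edgeR 4.0.16 (TMM, robust quasi-likelihood, R 4.3.3) on the 6 IMR-32 and the 9 SHEP libraries, with p-values adjusted over all genes (Benjamini-Hochberg, threshold 0.05); SEs are the fold change over the square root of F. CPM are TMM-scaled. The fits were tested on simulated data. Gene totals ranged from 11638859 to 26193478 counts; intervals and floors cover counting error only. Alternatives were DESeq2 1.42.0, RLE or library-total scaling, no filter, a replicate block, 2 groups only, leaving out each library, and, added after the data were seen, removing the length trend (lowess on log2 exon length per library, as an offset) and leaving out both libraries of most extreme trend. The members and lists were chosen with earlier results of these data known. Values in each library are given for up to 8 genes per comparison with the largest fold change among those called, with a mean log2 CPM of at least 3 and no overlap, and for genes called in opposite directions; ITGA11, ITGB8, TES in MYCN3A and ZYX against MYCN3A were added after their values were seen. Of each other list the 3 called genes of smallest p are named, except that some are not reported here.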

Additional observations from a re-analysis of the deposited data

Results flagged for a closer look

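ACTN4 and ITGA6 are given again because MYCNWT and MYCN3A libraries moved in opposite directions from the same noMYCN libraries and the difference between them passed the test. ITGA6 was 0.87 higher on the log2 scale in MYCNWT than in MYCN3A libraries (SE 0.11, adjusted p = 3.01e-06 by edgeR's quasi-likelihood test), 0.37 above noMYCN in MYCNWT and −0.50 in MYCN3A libraries. ACTN4 was 0.56 higher in MYCNWT than in MYCN3A libraries (adjusted p = 4.12e-05), and its fall in MYCN3A libraries did not pass with the length trend removed (−0.17, adjusted p = 0.0984). That fall was lost in 6 of 17 alternatives (edgeR adjusted p up to 0.138). The rise in MYCNWT libraries was lost in 3 of 17 for ITGA6 (up to 0.0822) and without noMYCN replicate 3 for ACTN4 (0.0858). The fall of ITGA6 and both differences between MYCNWT and MYCN3A libraries held in all 17.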

How the results depend on the processing

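Over the 4 comparisons 60 calls of named genes (the set, EXOSC10 and MYCN) were refitted under 12 or 17 alternatives each, 960 in all; 38 calls held in all of them, 88 alternatives lost a call and 0 changed sign. For MYCNWT against noMYCN, 6 genes of the set rose with a replicate block and 1 to 5 with 1 library left out, and 3 to 7 fell with 1 library left out. For MYCN3A against noMYCN, 1 gene rose under DESeq2, RLE factors, no low-count filter, the replicate block, 2 groups only and the removed length trend, and 0 or 1 with 1 library left out, where calls over all genes ranged from 2166 to 4451. For MYCNWT against MYCN3A, leaving out both libraries of most extreme length trend (MYCNWT replicate 1 and MYCN3A replicate 3) left 2806 calls over all genes and 2 lower genes of the set, TES and PARVB.

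The labels state no pairing of replicates. Same-numbered libraries of different groups correlated at 0.025 to 0.044 in IMR-32 and −0.033 to 0.138 in SHEP. Libraries with other numbers correlated at −0.031 to −0.012 and −0.134 to 0.062. The same-numbered values thus lay above all others in IMR-32, while the ranges overlapped in SHEP. Whether replicates of the same number share a source was not tested. The replicate block gave 5251, 4184, 4794 and 5414 calls over all genes in the 4 comparisons, against 4639, 3315, 3806 and 4527 without it. Its other counts for the set stayed within 1.5 times. Genes of few counts (ITGB8, ITGA10, ITGB3 and LIMS2) are limited by depth.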

Other observations

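The markers of cell state held further changes of named genes. In shEXOSC10 libraries the adrenergic markers CHGA (−1.07), a secretory granule protein, GATA3 (−0.91) and PHOX2A (−0.89), both transcription factors of sympathetic neurons, fell on the log2 scale against control libraries by edgeR's test. Of the 8 adrenergic markers 7 were called lower there and 1 was called higher, against 13.7% lower and 13.5% higher among all genes tested. The mesenchymal markers TWIST1 (−1.05) and FN1 (−0.24) fell and VIM (0.47) rose there, as did ERBB3 (1.15), a receptor of the glial list. FERMT3, the kindlin of blood cells, was the leukocyte gene called (1.01). FN1, the fibronectin bound by several of these integrins, fell in MYCNWT (−0.62) and MYCN3A (−0.99) libraries against noMYCN libraries. CD44 (0.38) and VIM (0.36) rose in MYCNWT libraries, and YAP1 (−0.56) and NOTCH2 (−0.56) fell in MYCN3A libraries. CD44 (0.68), NOTCH2 (0.81) and YAP1 (0.64) were higher in MYCNWT than in MYCN3A libraries. Of the 8 mesenchymal markers 3 were called higher and 2 lower in MYCNWT against noMYCN libraries. In MYCN3A against noMYCN libraries 0 and 4 were, and in MYCNWT against MYCN3A libraries 6 and 1. Among all genes tested the shares higher and lower were 10.9% and 11.3%, 12.7% and 12.8%, and 15.8% and 14.5% in these 3 comparisons in turn. The marker values are given without removal of the length trend. In the class of longest exons 30.3% of genes were called lower in MYCN3A against noMYCN libraries, and 34% higher in MYCNWT against MYCN3A libraries. ITGAE, an integrin chain of leukocytes, was lower in MYCNWT libraries, with log2 changes of −0.69 against noMYCN and −0.88 against MYCN3A libraries, and ITGB2 was higher than in MYCN3A libraries (1.72) at 25 counts or fewer. EXOSC10 had a log2 change of −0.40 in MYCN3A against noMYCN libraries (adjusted p = 0.00954 by edgeR's test, but 0.0787 without noMYCN replicate 1 and 0.0565 without MYCN3A replicate 2). In MYCNWT against MYCN3A libraries its log2 change was 0.60 (adjusted p = 0.00025 by the same test), a call that held in all 17 alternatives. In MYCNWT against noMYCN libraries it did not pass (0.20, adjusted p = 0.195).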
